A study of Labroides dimidiatus with 18 samples.

Results

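The 200 most abundant transcripts among those counted under Nile tilapia identifiers were examined in a forebrain slice of the cleaner wrasse Labroides dimidiatus. This reef fish picks parasites off the skin of its clients, larger fish that visit it for the purpose. The members were chosen by their level: counts of each fish were scaled to a common total over all tilapia-identified transcripts (CPM, 1000000 times the count over that total), and the 200 with the highest mean CPM over 17 fish were kept. They are 200 of 26788 transcripts in the table, or 0.747%, and 0.901% of the 22209 that had at least 1 count in these fish. Levels therefore chose the members and are given as a description without a test, and the mean was taken over both densities together. A member whose level is high in 1 group can still owe its place to that group, and this is said where it holds.

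All fish were females caught for the study, and each library is labelled as 1 forebrain section. The labels give no age and no treatment beyond site and density. High-density fish came from Clam Gardens (n = 3) and The Crest (n = 5), and low-density fish from Osprey (n = 7) and Watson's Bay (n = 2 of 3, since Watson's Bay fish 19 was left out of the ranking). The labels do not say what the density counts. Each site has 1 density, so density cannot be told apart from the particular sites. The slice was the second from the front of the brain and held the pallial areas Dl and Dm, beside portions of septum and striatum. These pallial areas are putative counterparts of the mammalian hippocampus and basolateral amygdala, regions known for their part in spatial memory and in emotional learning.

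In vertebrate brain the largest shares of polyadenylated RNA are usually taken by transcripts for subunits of the mitochondrial respiratory chain, ribosomal proteins, tubulins and other parts of the cytoskeleton, and proteins of glycolysis and of the synapse. Because a library samples a limited number of reads, a few abundant transcripts set how many reads remain for all others. The files give each transcript by identifier without a gene name, so which members belong to these classes is not stated, and the slice could not be checked against marker genes of its cell types. Reads came from the 3' end of transcripts, so a count does not scale with transcript length. The reads are from wrasse and the identifiers from tilapia, and how far the likeness of the 2 sequences sets a level was not tested.

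Tilapia-identified counts were few. They ran from 19238 in The Crest fish 15 to 63747 in The Crest fish 11, with a median of 36679. The floor of 3 counts corresponded to 47.1 to 156 CPM. For every 100 records of the separate Labroides table, unassigned ones included, there were 4.28 to 5.24 tilapia-identified counts (median 5.01). Shares given here are therefore shares of this small table and not of the whole library. No pair of libraries held identical values. Watson's Bay fish 19 had 3826 counts.

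The members took 39.8% ± 2.16 of tilapia-identified counts (SD, n = 17). The lowest share was 36.8% in Osprey fish 1, the median 39.8% and the highest 43.6% in The Crest fish 15, which was the shallowest of the 17 libraries. Within the members the counts were concentrated at the top: rank 1 alone took 2.02% ± 0.549, ranks 1 to 10 took 8.93% ± 1.06, and ranks 1 to 50 took 21.8% ± 1.52. The next 200 transcripts brought the share to 50.2% ± 2.26. In the separate table of counts on 28134 Labroides gene models, the 200 most abundant models took 48.4% ± 2.66, a higher share than in the tilapia-identified table in 17 of 17 fish. That table counts gene models rather than transcripts, so these shares are not like for like, and the part of this in the difference was not tested.

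**Figure D1:**
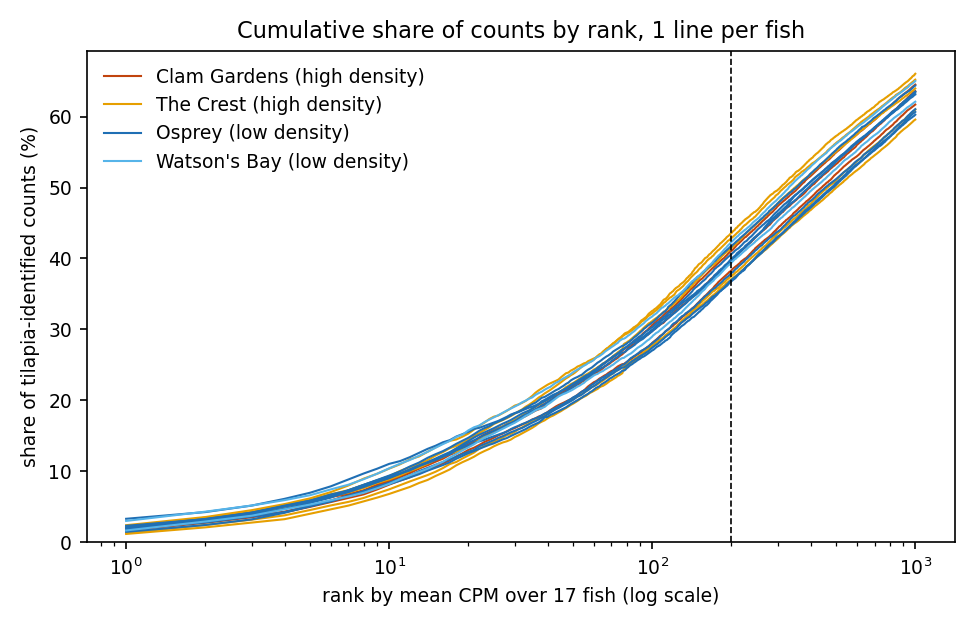
Cumulative share of tilapia-identified counts (%) against rank by mean CPM (log scale), with 1 line per fish coloured by site and a dashed line at rank 200. At rank 200 the lines lie between 36.8% and 43.6%, and lines of the 4 sites are interleaved.

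Watson's Bay fish 19, which the ranking did not use, gave a share of 40.5% (exact Clopper-Pearson 95% interval 38.9 to 42.1, for counting error only). That lies inside the range of the other 17 fish. In this fish 194 members had at least 1 count and 6 had none, and 47 were under the floor of 3 counts. Its order of levels was less like that of the others. Over the 200 members, Spearman's rho of its CPM with each of the 17 fish ran from 0.410 to 0.550, against 0.591 to 0.856 among the 136 pairs of those fish. These correlations are across transcripts of the same depth-limited libraries, and fish 19 is the shallowest of all 18.

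The share taken by the members was close in both densities. High-density fish gave 37.1% at the lowest, a median of 40.4% and 43.6% at the highest, with a mean of 40.2% ± 2.44 (SD, n = 8). Low-density fish gave 36.8%, 39.8% and 42.3%, with a mean of 39.5% ± 1.95 (n = 9). The groups overlapped over nearly their whole range, and the difference of 0.719 percentage points was smaller than the pooled SD among fish, 2.19 points.

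Among high-density sites the mean share was 39.7% ± 1.37 for Clam Gardens and 40.5% ± 3.03 for The Crest (SD, n = 3 and 5). Among low-density sites it was 39.1% ± 1.89 for Osprey and 40.9% ± 2.08 for Watson's Bay (n = 7 and 2). The Crest held both the highest value and some of the lowest ones, with 37.1% in fish 11 and 37.5% in fish 12 against 41.5% to 43.6% in the other 3. Sites accounted for 11.0% of the variance among fish, against 18.8% of its degrees of freedom. This share became 22.3% without The Crest fish 11, 19.9% without The Crest fish 12, 17.4% without Osprey fish 5 and 16.5% without Watson's Bay fish 17. It became 7.06% without Osprey fish 1 and 7.25% without Osprey fish 4. The part at the very top leaned the other way, with ranks 1 to 10 at 8.56% ± 1.10 for high and 9.25% ± 0.973 for low density, again with overlapping groups. Rank 1 alone took 1.83% and 2.19% on average, but its medians were 1.91% and 1.94%. Its highest shares were 3.33% in Osprey fish 3 and 3.03% in Watson's Bay fish 20.

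**Figure D2:**
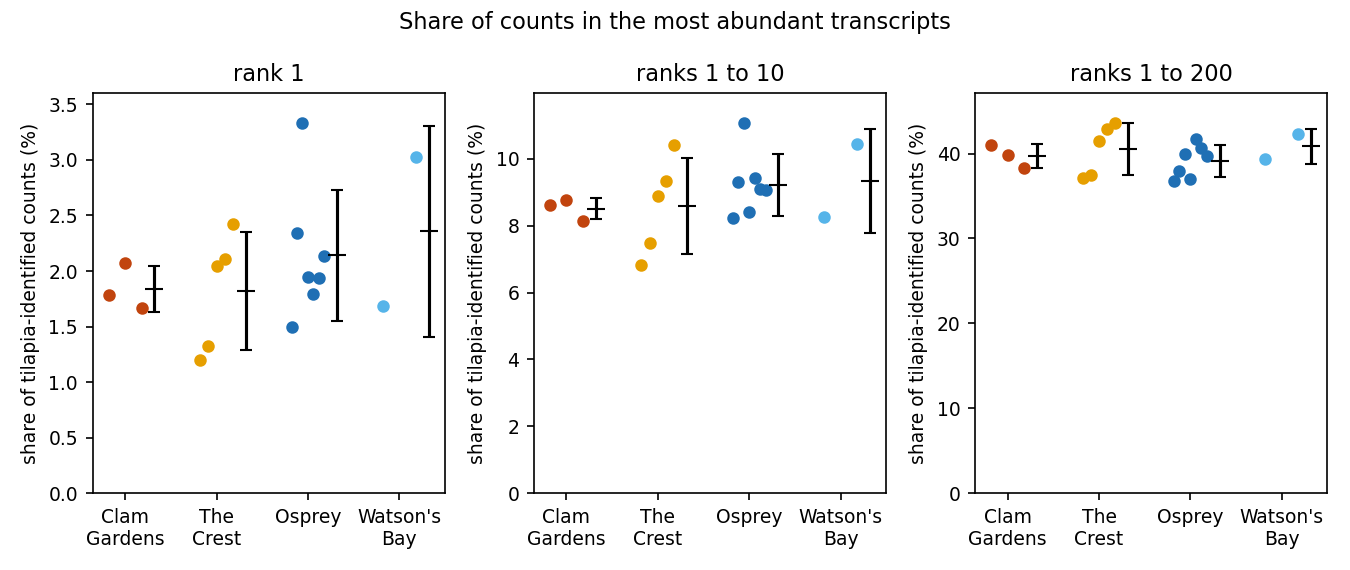
Share of tilapia-identified counts (%) taken by rank 1, by ranks 1 to 10 and by ranks 1 to 200, with 1 point per fish in each site; the black bar is the site mean ± SD. For ranks 1 to 200 the site means lie between 39.1% and 40.9%, and the fish of all 4 sites overlap.

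The most abundant transcript, ENSONIT00000000004.1, stood well above the rest at 20185 ± 5491 CPM (SD, n = 17), which was 1.78 times rank 2 and 27.2 times rank 200. It had 396 to 1236 counts per fish. Its level was lowest in The Crest fish 11 at 11954 CPM and highest in Osprey fish 3 at 33316 CPM, and Watson's Bay fish 20 came next with 30287 CPM. High-density fish ran from 11954 to 24275 CPM with a median of 19134, and low-density fish from 14947 to 33316 CPM with a median of 19429, so the groups overlapped.

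Rank 2, ENSONIT00000006853.1, was steadier, at 11335 ± 1584 CPM and with a lowest fish of 8800.2 and a highest of 14322 CPM. These were the only members above 10000 CPM on average. Ranks 3 to 6 were ENSONIT00000021045.1 at 8426 ± 899 CPM, ENSONIT00000016946.1 at 8224 ± 1599, ENSONIT00000016042.1 at 7574 ± 769.8 and ENSONIT00000001475.1 at 7289 ± 1013. The step from rank 2 to rank 3 was larger than the SD of either, whereas the steps between neighbours from rank 3 to rank 6 were smaller than those SDs.

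Ranks 7 to 10 were ENSONIT00000020950.1 at 6801 ± 1775 CPM, ENSONIT00000006527.1 at 6719 ± 1248, ENSONIT00000022338.1 at 6655 ± 617 and ENSONIT00000021213.1 at 6055 ± 909. The first 3 of these 4 had means closer together than their spread among fish, so their order is not fixed by these data. ENSONIT00000020950.1 ranged from 3976 CPM in Clam Gardens fish 9 to 10140.3 CPM in Osprey fish 5. ENSONIT00000022338.1 ranged only from 5334 to 7909 CPM.

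Below the top the levels fell off gradually. Of the 200 members, 14 had a mean above 5000 CPM, 49 above 2000 and 153 above 1000, and the median member had 1304 CPM. The rank limit fell where levels hardly differ: the last members inside it, ENSONIT00000003634.1 and ENSONIT00000017213.1, had 745 ± 246 and 743 ± 167 CPM. The first transcripts outside it, ENSONIT00000024898.1 and ENSONIT00000005143.1, had 739.6 ± 175 and 737 ± 283 CPM.

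Every member rested on 444 to 12147 counts over the 17 fish, with a median of 805. In each of the 17 fish 190 members had at least 10 counts. Members with a count of 0 in any fish were ENSONIT00000008027.1, with 0 counts in Osprey fish 1, and ENSONIT00000002072.1, with 0 in Osprey fish 2.

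The make-up of the list was stable across groups of fish. Ranking the high-density fish alone gave a top 200 that shared 193 transcripts with the members, and ranking the low-density fish alone shared 196. Top lists ranked within a single site shared 187 for Clam Gardens, 187 for The Crest, 192 for Osprey and 189 for Watson's Bay, and 167 transcripts were in all 4 lists. These rankings use the same fish that chose the members, so the overlap is partly built in.

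In single fish, 168 to 183 members were in that fish's own top 200. For 102 members this held in all 17 fish, and for 191 in at least 9. The place of ENSONIT00000008027.1 depended on the group of fish. It was rank 78 over all fish, rank 35 among high-density fish and rank 433 among low-density fish. ENSONIT00000014467.1 was rank 92 over all fish, 59 among high-density and 158 among low-density fish.

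Among fish of the same site, the members varied modestly, and for most of them a large part of that spread was counting error. The coefficient of variation (CV) around the site means, on CPM after TMM scaling (a trimmed mean of the log ratios between libraries), had a median of 21.3%. Counting alone would give a median of 15.3% at these depths, and the part beyond counting had a median of 15.2% (quartiles 10.4% and 21.3%). Taken from median absolute deviations, the median beyond counting was 5.97%, so its size depends on the measure. Those deviations were taken around site medians without a correction for the few fish per site. That lowers them, by an amount that was not tested, so the values are not like for like. For the next 200 transcripts the CV was higher, with a median of 30.5%, but so was the counting part, 24.7%, and the part beyond counting was 17.4%.

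The part beyond counting had medians of 11.5% for ranks 1 to 10, 13.5% for ranks 11 to 50, 17.9% for ranks 51 to 100 and 15.5% for the lower 100 members. It exceeded 20% in 59 members, 30% in 14 and 50% in 2. In 18 members it was 0, so no spread beyond counting was detectable at this depth. Within ranks 1 to 10 it was widest for rank 1, at 27.5%, followed by ENSONIT00000020950.1 at 22.3%, ENSONIT00000016946.1 at 18.4% and ENSONIT00000006527.1 at 16.8%.

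The 3 members with the largest spread beyond counting were ENSONIT00000008027.1 at 110%, ENSONIT00000002072.1 at 68.2% and ENSONIT00000003740.1 at 43.5%. ENSONIT00000002072.1, at rank 172, varied from fish to fish at every site with more than 2 fish. At Clam Gardens it had 13, 18 and 58 counts, and at The Crest 2, 12, 21, 50 and 77. At Osprey the counts were 0, 1, 14, 28, 37, 65 and 67, while the Watson's Bay fish had 43 and 75.

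High and low values of ENSONIT00000002072.1 thus occurred at each of these 3 sites, and both densities spanned nearly the same range, with 47.5 to 1581 CPM among high-density and 0 to 1768 CPM among low-density fish. ENSONIT00000003740.1, at rank 143, ran from 283 CPM in Osprey fish 3 to 2046 CPM in The Crest fish 13. That is a 7.22-fold range, the widest among the members with a count in every fish, of which 4 exceeded 5-fold. The median member had a 2.32-fold range from its lowest to its highest fish, and 53 members stayed under 2-fold.

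The 3 steadiest members varied less than counting alone would give on average. The variance of ENSONIT00000003153.1 was 0.511 times the counting variance, that of ENSONIT00000000182.1 0.562 times and that of ENSONIT00000022403.1 0.574 times. ENSONIT00000003153.1 had 945 ± 129 CPM and ENSONIT00000000182.1 had 1093 ± 149 CPM (SD, n = 17).

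**Figure D3:**
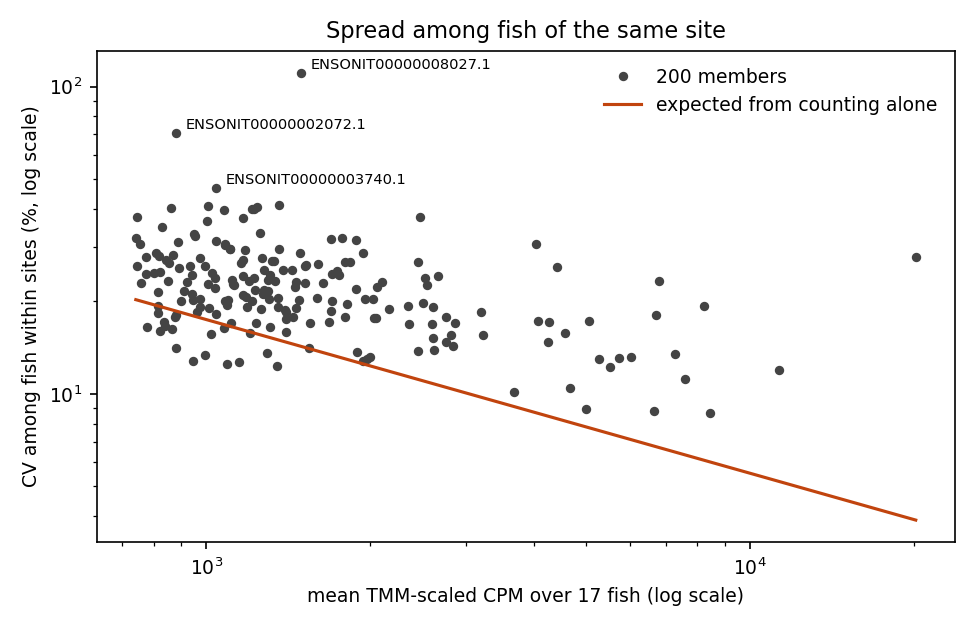
Coefficient of variation among fish of the same site (%, log scale) against mean TMM-scaled CPM (log scale) for the 200 members, with the spread that counting alone would give as a line. Most members lie above the line and 18 lie below it, with ENSONIT00000008027.1 at 111% and ENSONIT00000002072.1 at 70.7% far above it.

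Single fish contributed unequally to the extremes. The Crest fish 15, the shallowest of the 17 libraries, was the highest fish for 38 of the 200 members and the lowest for 20, and Osprey fish 3 was the lowest for 30. Osprey fish 7 was the lowest for 1. The part of depth in these counts was not tested.

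Most of the variance of log2 CPM lay among fish within sites. Split into 3 parts, the median member had 6.87% of its variance between densities, 13.6% between sites of the same density and 75.2% within sites, and in 181 members more than 50% was within sites. These medians are close to what the design's degrees of freedom alone would apportion, 6.25%, 12.5% and 81.2%. ENSONIT00000008027.1 and ENSONIT00000014467.1 had 49.0% and 44.4% between densities, and ENSONIT00000019817.1 had 45.6% between sites of the same density. These were not the highest parts, which reached 53.4% between densities and 66.1% between sites of a density in members that passed no test.

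The first principal component of the members carried 24.1% of their variance. ENSONIT00000008027.1 alone held 37.0% of its squared weights, and without that member the first component carried 21.0%. On the component of all 200 members The Crest fish scored from 1.45 to 4.62 and Osprey fish from -4.73 to 1.48, with Osprey fish 6 as the highest. That fish was the one Osprey fish inside The Crest's range. Clam Gardens, from -0.46 to 1.22, and Watson's Bay, from -0.16 to 0.15, lay wholly inside the range of Osprey. By median score the order was The Crest (3.10), Clam Gardens (1.03), Watson's Bay (-0.00498) and Osprey (-2.58), with both high-density sites above both low-density sites. Without ENSONIT00000008027.1 Watson's Bay, from 0.86 to 2.20, lay above Clam Gardens, from -0.09 to 0.51. Clam Gardens was inside the range of Osprey, from -5.19 to 1.56, whereas Watson's Bay fish 17 was above every Osprey fish. The Crest then ran from 0.15 to 3.37 and overlapped the ranges of all the other sites.

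Whether abundant transcripts differ between densities was asked with edgeR's quasi-likelihood F test over all 527 transcripts that passed the expression filter, among them all 200 members. Adjusted p-values are Benjamini-Hochberg values over all transcripts tested. In this slice 2 members passed, ENSONIT00000008027.1 and ENSONIT00000014467.1, both higher at high density. No other transcript passed, so the background was 0.38% of those tested. ENSONIT00000008027.1 is a member only through the high-density fish: its low-density mean of 334 CPM is under the 743 CPM of rank 200, and its 8 high-density fish also carried it past the filter, which asks for 273 CPM in 8 fish at the median library. Its test is therefore not independent of how it was chosen, whereas ENSONIT00000014467.1 ranked within the first 200 in each density. The same members were lost with some other tests, as given with their values. In these bulk slices fewer cells of a type and less RNA per cell cannot be told apart.

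The remaining members did not pass, and for most of them a 2-fold difference lay outside the interval. The 95% interval of the high against low difference lay within 2-fold in both directions for 195 of the 200 members and within 1.5-fold for 135. The fit takes the fish as independent, although each density comes from 2 sites. These intervals thus describe the 2 groups of fish and do not fully allow for differences between sites of a density. For the 327 other transcripts tested these counts were 291 and 106. The median log2 difference was 0.04 over the members and 0.0002 over all tested, and the members ran from -0.66 to 3.02.

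An unadjusted p under 0.05 was found for 32 members, 19 higher and 13 lower at high density, or 16.0% of them against a background of 9.49% of all tested. Without The Crest fish 15 it was 28 members, of which 13 were higher. The members hold more counts than the others, and their median standard error was 0.16 on the log2 scale against 0.24. In no member were the densities free of overlap, and the background for that was 0% in each direction.

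**Figure D4:**
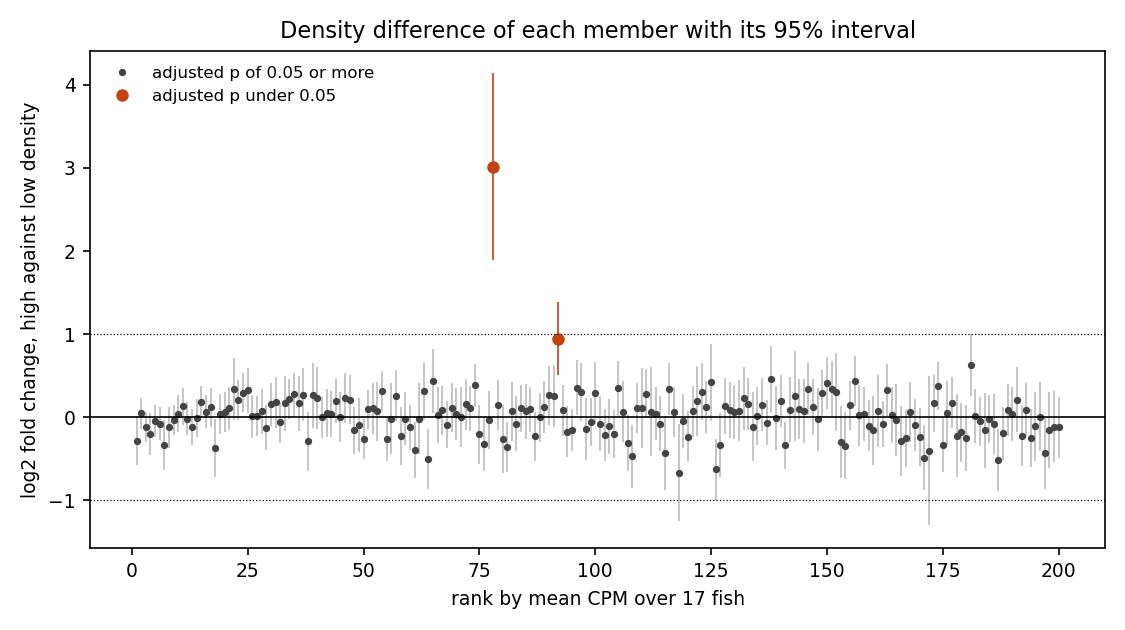
Log2 fold change of high against low density from edgeR for each member (points, with 95% intervals as lines) against rank by mean CPM; dotted lines mark 2-fold. ENSONIT00000008027.1 at 3.02 and ENSONIT00000014467.1 at 0.95 passed the threshold of 0.05, and 195 of 200 intervals lie between the dotted lines.

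None of ranks 1 to 10 passed. The largest differences among them were in ENSONIT00000020950.1, with 6015 ± 1623 CPM against 7499 ± 1683 in the low-density group (log2 -0.34, SE 0.15, edgeR adjusted p = 0.478), and in rank 1, with 18274 ± 4178 and 21884 ± 6175 CPM (log2 -0.28, SE 0.14, edgeR adjusted p = 0.478). For rank 2 the log2 difference was 0.05, with a 95% interval of -0.14 to 0.24. Low-density fish had fewer counts on average, 34078 against 39524. Shallow fish held both the highest level of ENSONIT00000020950.1 (Osprey fish 5, 22090 counts) and the lowest (Clam Gardens fish 9, 23391 counts). In Watson's Bay fish 19, the shallowest of all, that transcript had 72 counts against 57 for rank 1. The part of depth in its difference was not tested.

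ENSONIT00000008027.1, at rank 78, was the transcript with the widest differences between fish. At Clam Gardens it had 299.9, 1973 and 2223 CPM, and at The Crest 293, 1662, 3067, 5600 and 7097 CPM. Osprey fish had 0 CPM at the lowest, 186 at the median and 1346 at the highest, and the Watson's Bay fish had 200.3 and 465.6 CPM. Both high-density sites were high in most of their fish, but Clam Gardens fish 10 and The Crest fish 14 were within the low-density range. Osprey fish 6 and Watson's Bay fish 20 were above both of these fish.

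The fitted difference of ENSONIT00000008027.1 at high against low density was 8.09-fold, with an edgeR adjusted p of 0.00388 (log2 3.02, 95% interval 1.89 to 4.14, SE 0.55). The 8 high-density fish averaged 2777 ± 2427 CPM (SD), against 334 ± 401 over the 9 of low density. The log2 difference became 3.73 without Osprey fish 6. It stayed past the threshold in each of the 17 fits that left out 1 fish, with log2 differences from 2.65 to 3.73. This member did not pass in DESeq2 (adjusted p = 0.273), which ran without the expression filter and adjusted over 22209 transcripts. It also did not pass with edgeR's robust dispersion (adjusted p = 0.179) or in an exact permutation test over all 24310 assignments of the fish (adjusted p = 0.206).

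ENSONIT00000014467.1, at rank 92, differed less. Clam Gardens fish had 1069, 2236 and 2287 CPM, and The Crest fish had 977, 1039.6, 1941, 2279.9 and 2761 CPM. Osprey fish ran from 526.3 to 1268 CPM with a median of 849, and the Watson's Bay fish had 1176 and 1382 CPM. High-density fish fell into a lower set of 3 inside the low-density range and a higher set of 5 above every low-density fish.

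Its fitted difference was 1.93-fold higher at high density (log2 0.95, SE 0.21, 95% interval 0.51 to 1.38, edgeR adjusted p = 0.0329), with 1824 ± 696 CPM in high-density against 950.2 ± 284 in low-density fish. The call was narrow, since it held 5 times when each of the 17 fish was left out in turn, with adjusted p from 0.00421 to 0.110. Both Watson's Bay fish lay above the low-density median of 876 CPM. With each site given equal weight the adjusted p in edgeR was 0.219.

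Differences among the 4 sites were tested together in a fit with a term for each site, over 871 transcripts. The background was 0.459%, with 4 called, and 2 of the 4 were members, ENSONIT00000008027.1 (edgeR adjusted p = 0.00472) and ENSONIT00000019817.1 (edgeR adjusted p = 0.0206). Without The Crest fish 13 neither was called. At the sites where they were low, both had means under that of rank 200, so each is a member through its other sites. The count of members called is therefore not independent of how they were chosen. At an unadjusted p under 0.05 there were 32 members, 16.0%, against 10.1% of all tested.

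ENSONIT00000019817.1, at rank 118, was low at The Crest. Its 5 fish had 501, 508, 617, 643 and 676 CPM, while Clam Gardens fish had 1254, 1454 and 1817 CPM. Osprey fish ran from 897 to 2274 CPM with a median of 1549, and the Watson's Bay fish had 601 and 1274 CPM. All The Crest fish were below every fish of Clam Gardens and Osprey, and among the others Watson's Bay fish 17 alone was inside their range.

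Between densities its log2 difference was -0.66 (SE 0.28, edgeR adjusted p = 0.478). Between the 2 high-density sites, The Crest and Clam Gardens, the log2 difference was -1.32 (SE 0.32, 95% interval -1.96 to -0.67, edgeR adjusted p = 0.110). That is about as large as the difference from Osprey given next, but it missed the threshold. The place of ENSONIT00000019817.1 among the members rests on sites other than The Crest, so neither difference is independent of that choice.

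The Crest and Osprey are the sites with most fish, 1 of each density. Of the members 5 passed, 3 higher and 2 lower at The Crest, with a background of 1.15% of all 871 tested. ENSONIT00000008027.1 was higher by 3.37 on the log2 scale (SE 0.59, edgeR adjusted p = 0.00147), and by 4.52 without Osprey fish 6, but did not pass with robust dispersion (adjusted p = 0.0749). ENSONIT00000014467.1 was higher by 1.14 (SE 0.25, edgeR adjusted p = 0.0128), and did not pass without The Crest fish 11 (edgeR adjusted p = 0.0782) or in limma (adjusted p = 0.0510). Of the 3 members that were higher, 2 ranked below the first 200 among low-density fish, ENSONIT00000008027.1 among them.

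ENSONIT00000019817.1 was 589 ± 80.0 CPM at The Crest and 1589 ± 629 CPM at Osprey, 2.64-fold lower (log2 -1.40, SE 0.26, 95% interval -1.94 to -0.87, edgeR adjusted p = 0.00295). Its mean at The Crest is under the 743 CPM of rank 200, so it is a member through the other sites. Its test is therefore not independent of how it was chosen. ENSONIT00000011007.1, at rank 64, was 1230.3 ± 186 CPM at The Crest and 2147 ± 486 at Osprey (log2 -0.75, SE 0.19, edgeR adjusted p = 0.0450). Its 5 The Crest fish, at 988 to 1465 CPM, were all below the 7 Osprey fish, at 1572 to 2753 CPM. The call was narrow, with 9 of the 17 fits that left out 1 fish keeping it. It was also lost without an expression filter (edgeR adjusted p = 0.646), with the CPM filter (0.0777), in limma (0.0510) and with all 18 fish (edgeR adjusted p = 0.0526).

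In this pair of sites the fish did not overlap for 1 member that was higher and 2 that were lower at The Crest. The background was 0.459% of all tested in each direction. At an unadjusted p under 0.05 there were 41 members, 20.5%, against 13.1% of all tested, and 29 of the 41 were higher at The Crest (21 of 37 without TMM scaling). The 95% interval lay within 2-fold for 188 members. The 5 calls became 3 without The Crest fish 13, without The Crest fish 15 or without Osprey fish 1, and 8 without The Crest fish 12.

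**Figure D5:**
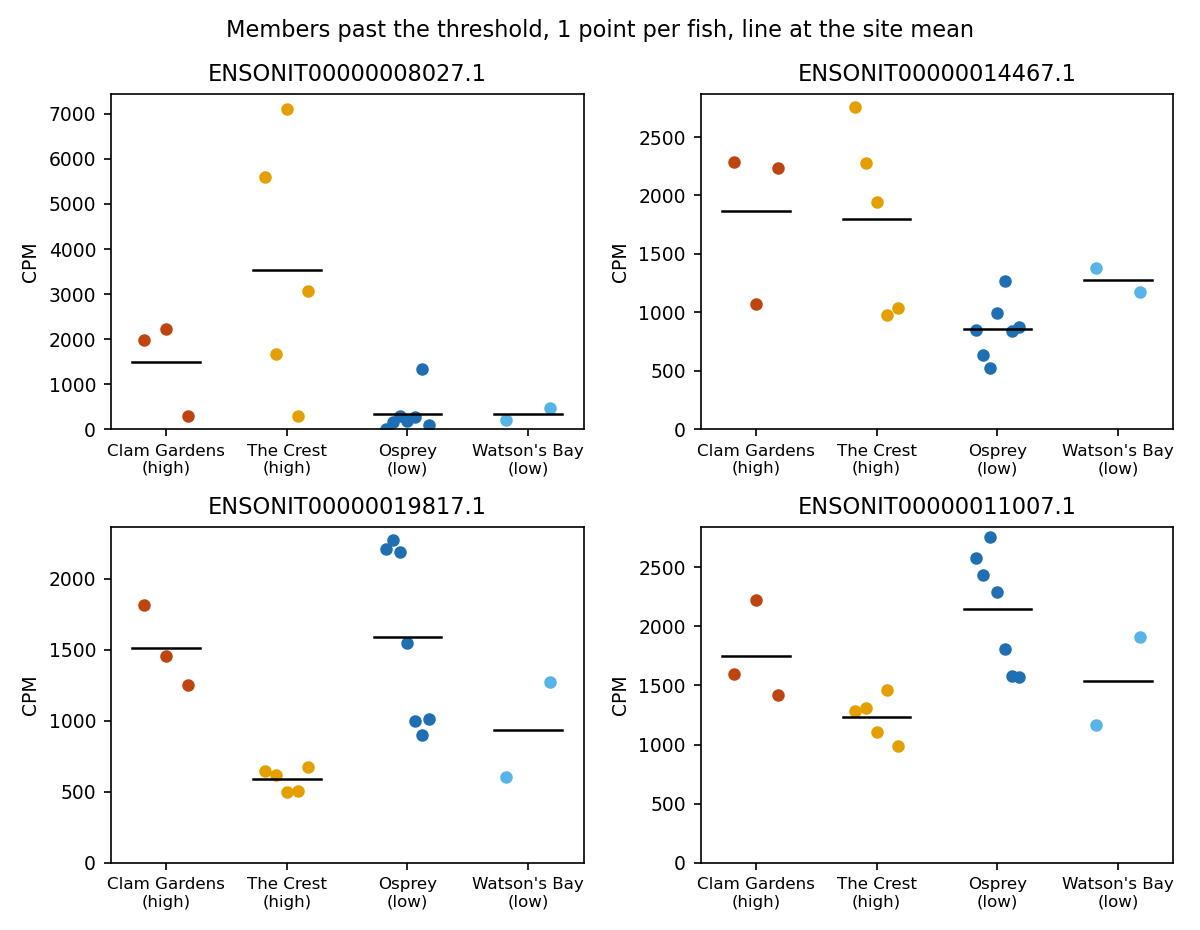
CPM of ENSONIT00000008027.1, ENSONIT00000014467.1, ENSONIT00000019817.1 and ENSONIT00000011007.1 with 1 point per fish and a line at the site mean, by site with its density. ENSONIT00000008027.1 reaches 7097 CPM at The Crest and at most 1346 at Osprey, and The Crest fish lie below every Osprey fish in ENSONIT00000019817.1 and ENSONIT00000011007.1.

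Clam Gardens against Osprey is the other pair across density with Osprey in it, and it shares the Osprey fish with the pair above. In edgeR 0 members passed and the background was 0%, with 19 members at an unadjusted p under 0.05 (9.5%, background 7%). DESeq2 and limma also called 0 members. ENSONIT00000014467.1 was higher at Clam Gardens by 1.12 on the log2 scale (SE 0.29, edgeR adjusted p = 0.241) and ENSONIT00000008027.1 by 2.01 (SE 0.73, edgeR adjusted p = 0.612). Clam Gardens holds 3 fish, and 182 of the 200 intervals lay within 2-fold.

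Sites that share a density differ in place but not in the density label. Their mean depth also differed, and its part was not tested. For The Crest against Clam Gardens 0 members passed in edgeR, DESeq2 or limma, and the edgeR background was 0%. At an unadjusted p under 0.05 there were 24 members, 12.0%, against 8.61% of all tested. Of these 14 were higher at The Crest, but 7 of 17 without TMM scaling. Differences ran from -1.32 to 1.36 on the log2 scale, and 178 of 200 intervals lay within 2-fold. ENSONIT00000008027.1 had the highest, 1.36, with a 95% interval of -0.01 to 2.73.

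Between Osprey and Watson's Bay 0 members passed in edgeR, DESeq2 or limma, with a background of 0%. At an unadjusted p under 0.05 there were 22 members, 11.0%, against 7.69% of all tested. Here 163 of 200 intervals lay within 2-fold, the fewest of these comparisons, and Watson's Bay has 2 fish in it. For ENSONIT00000008027.1 the log2 difference was 0.11 with a 95% interval of -1.93 to 2.16, so this pair gives little precision for that member.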

How the data were processed

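The authors deposited raw counts per transcript for each fish, as whole numbers without normalization, from 3' tag sequencing. Per the submitters' processing notes, cutadapt 2.8, BWA and SAMtools were used. Which build, counting program and strand setting lie behind the table is not given in the sources used here. Nothing is said of PCR copies. The exact Clopper-Pearson interval of a single library's share covers counting error only. The intervals of differences between groups of fish come from the edgeR fits and also take in the spread among fish. The entry that names no transcript was removed. The members and the lists were chosen with earlier results of these data known.

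Tests ran in R 4.3.3 with edgeR 4.0.16 (quasi-likelihood F test, not robust) on 17 fish, with TMM scaling, filterByExpr at a minimum count of 10 (527 transcripts by density, 871 by site) and Benjamini-Hochberg adjustment over all transcripts tested at a threshold of 0.05. SE is the log2 fold change over the square root of F. The filter by density kept 54.0% of counts and the one by site 60.6%. Of 153 pairs of libraries 0 were identical, and none differed by less than sampling noise (chi-square over degrees of freedom at least 1.34). Nothing beyond the sample labels says that libraries come from separate animals, so p-values measure the spread between these samples. The scripts were tested on simulated data.

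Spread beyond counting is the within-site CV with the Poisson part taken off. The text names ranks 1 to 10, the 2 ranks on each side of the limit, the 3 members with most and least spread, and up to 2 members that rose and 2 that fell per comparison; the 18 members at 0 beyond counting were ordered by variance over counting variance, a choice made after their values were seen. ENSONIT00000019817.1 and ENSONIT00000008027.1 are also given where they did not pass, to set sites side by side. A planned permutation test of the members' share of counts is not given, because the members were ranked on these counts. Planned gene and marker lists could not be matched to identifiers. Alternatives were DESeq2 1.42.0, limma 3.58.1, other scalings and filters, all 18 fish, and leaving out each fish. DESeq2 ran without the expression filter. Its adjustment was over 22209 transcripts by density and 22208 by site, but 1111 for The Crest against Osprey.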

Additional observations from a re-analysis of the deposited data

Results flagged for a closer look

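For 96 combinations of a measure and a group of fish, the extreme fish's distance from its nearest neighbour was divided by the range of that group. Chance alone would single out about 5% of independent combinations that were not picked from the data, and a fish stood apart in 8. These combinations are neither, so 5% is no exact yardstick for the 8. Sites lie inside densities, and some members were picked for their spread or for passing a test. Osprey fish 3 had the highest share of counts in ranks 1 to 10, 11.1% against 9.42% in the next Osprey fish. The Crest fish 15, the shallowest of the 17 libraries, had 9304.5 CPM of ENSONIT00000020950.1 against 6035 in the next The Crest fish, and 9616 CPM of ENSONIT00000006527.1 against 7188 in the next high-density fish. Watson's Bay fish 20 was the highest low-density fish for ENSONIT00000022338.1, at 7768 against 6874 CPM, and for ENSONIT00000022403.1, at 1103 against 849 CPM. Osprey fish 7 had 1393 CPM of ENSONIT00000000182.1, one of the 3 steadiest members, against 1086 in the next Osprey fish.

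Osprey fish 6 had 1346 CPM of ENSONIT00000008027.1, against 283 in the next Osprey fish and 465.6 in the next low-density fish. The same fish was the one Osprey fish within The Crest's range on the first principal component of the members. ENSONIT00000008027.1 held 37.0% of the squared weights of that component, so this partly repeats the same value. On the component without that member, Osprey fish 7 was inside The Crest's range as well. Without Osprey fish 6 the density difference of ENSONIT00000008027.1 was larger, 3.73 on the log2 scale (edgeR adjusted p = 0.000232). No explanation was tested.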

How the results depend on the processing

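The 2 members called between densities remained with relative log expression scaling, no scaling, no expression filter, a CPM filter and all 18 fish. The count was 1 in limma, 1 with each site given equal weight and 1 with a term for library size, and 0 in DESeq2 (35 members at an unadjusted p under 0.05), with robust dispersion (31) and in the exact permutation test (34). The DESeq2 adjustment was over 22209 transcripts, against 527 in the main fit, so its count is not set by the method alone. Leaving out 1 fish gave 1 to 2, and without The Crest fish 12 1 of the 2 was lower at high density. For ENSONIT00000008027.1 the adjusted p ran from 1.34e-49 in edgeR without a filter to 0.273 in DESeq2, and for ENSONIT00000014467.1 from 0.000149 to 0.273. The densities overlapped for ENSONIT00000008027.1, so 1.34e-49 cannot be read as a measure of the spread among these fish. It is given only as the end of the range. Among the 4 sites the count of 2 became 4 without a filter, 1 in DESeq2 and 0 with robust dispersion (32 at an unadjusted p under 0.05), and 0 to 3 without 1 fish. Between The Crest and Osprey the 5 calls became 3 in limma and 3 to 8 without 1 fish.

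The Crest against Clam Gardens gave 1 call without a filter, higher at The Crest, and 1 with the CPM filter, lower there, and 0 to 1 without 1 fish (1 without Watson's Bay fish 17, which shares the estimate of the spread). Clam Gardens against Osprey gave 2 and 1, and 0 to 1 without 1 fish (1 without Clam Gardens fish 9). Osprey against Watson's Bay gave 0 in all 25 settings. The cause of these changes was not tested. ENSONIT00000008027.1 and ENSONIT00000014467.1 between densities, and these with ENSONIT00000019817.1 and ENSONIT00000011007.1 between The Crest and Osprey, kept their direction in each setting. The difference in the members' share between densities ran from 0.238 to 1.17 percentage points without 1 fish. With other rank limits it was 0.614 points for ranks 1 to 400, 0.628 for ranks 1 to 100 and 0.117 for ranks 1 to 50. For ranks 1 to 10 it was -0.695, and for rank 1 alone -0.361.

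The median spread beyond counting was 17.3% with all 18 fish (the cause was not tested) and 14.7% to 15.8% without 1 fish. It was 5.97% from median absolute deviations, which were not corrected for the few fish per site and so run lower. Leaving out ENSONIT00000008027.1 to recompute the first principal component was chosen after seeing the data. No paired analysis was possible because fish numbers are not shared between groups. Depth limits low members most, since 3 counts are 156 CPM in the shallowest fish.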
